A study of Mus musculus with 24 samples.

Results

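The comparison set CD11b+ conventional dendritic cells (cDC) of NOD mice against those of B6 mice, both taken 12 h after an injection of CpG-A. Its members are 6 of the series' 24 expression arrays, the 3 titled for NOD, CD11b and CpG and the 3 titled for B6, CD11b and CpG, and the measure is the log2 signal of 21789 of 35556 probe sets, those that carry 1 gene symbol. NOD/ShiLt is an inbred strain that develops autoimmune diabetes, and C57BL/6 (B6) is a common laboratory strain used here as the control. All mice were females aged 8 to 10 weeks. Each spleen was digested with collagenase, CD11c+ cells were sorted by flow cytometry, and 5 ng of RNA was amplified for each array. Further groups were used beside the main one, CD11b+ cDC of NOD and of B6 mice after PBS, and the sorted CD8+ cDC of NOD and of B6 mice after CpG, each group with 3 arrays. Whether a group's arrays came from separate animals or pools is not given, so the p values measure the spread between these arrays, which may be technical.

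CpG-A is a DNA oligonucleotide that Toll-like receptor 9 recognises in endosomes. The receptor signals through the adaptor MyD88 to interferon regulatory factors and NF-kB, and dendritic cells answer with type I interferon, inflammatory cytokines and a maturation programme in which co-stimulatory molecules rise and antigen capture declines. CD11b+ cDC, also called cDC2, are the splenic subset known for presenting antigen on MHC class II to CD4 T cells.

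Differences are log2 values of NOD minus B6 ± the standard error of the limma fit (n = 3 arrays per group), "called" means an adjusted p under 0.05 after Benjamini-Hochberg adjustment over the 11235 genes tested, and levels are log2 signals, whose size cannot be compared between genes. The 6 arrays correlated with the others of their own group at 0.981 to 0.986 on average. The sort label was met by the subset genes. Sirpa, an inhibitory receptor of cDC2, averaged 11.12 and 10.36 in NOD and B6 CD11b+ cDC after CpG, against 8.39 and 8.15 in NOD and B6 CD8+ cDC. Itgam, which encodes CD11b, averaged 7.38 and 7.02 in the CD11b+ cells, against 4.83 and 4.92 in the CD8+ cells, and did not differ between the strains by the test (0.36 ± 0.24, adjusted p = 0.304). Xcr1, a receptor of CD8+ cDC, was low in CD11b+ cells of both strains (6.34 in NOD and 6.08 in B6) and high in CD8+ cells (10.57 and 9.45). Cd8a itself was lower in NOD CD11b+ cDC than in B6 (6.99, 6.23 and 6.48 in NOD against 8.45, 7.87 and 8.81 in B6, -1.81 ± 0.26, adjusted p = 1.44e-05), after PBS as well (-1.52 ± 0.26).

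Genes that define natural killer (NK) cells had the largest median difference of the marker lists, and they were low in NOD. Of the 20 NK markers, all measured, 16 were lower in NOD CD11b+ cDC after CpG and 1 was higher, Cd7, with a median difference of -2.80 beside 0.03 over all genes tested. The share of all genes called in this comparison was 23.1%, with 13.9% higher and 9.21% lower in NOD. The summed signal of the list, as log2, was 13.79 to 13.90 on the NOD arrays and 14.85 to 15.38 on the B6 arrays, so the groups lay apart and B6 replicate 2 was highest. After PBS it was 13.11 to 13.14 in NOD and 13.27 to 13.45 in B6, and in CD8+ cDC after CpG 13.27 to 13.40 in NOD and 13.34 to 13.53 in B6, where 1 marker was lower and 1 higher, in a comparison that called 20.2% of all genes. Ncr1, which encodes the NK activating receptor NKp46, stood at 4.92, 5.81 and 6.06 in NOD and 9.92, 10.49 and 9.33 in B6 (-4.32 ± 0.27, adjusted p = 4.26e-11). Klrb1c, which encodes NK1.1, was at 3.59, 3.78 and 3.63 in NOD and 7.63, 9.10 and 7.80 in B6 (-4.51 ± 0.28). Only genes above the array median on at least 3 arrays passed the filter for testing. Klrb1c and Eomes, both of the NK list, were above it only on the B6 CD11b+ arrays after CpG and passed the filter through them. The count and median of the NK list therefore partly rest on the group where such genes are high.

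Receptor, granule and transcription factor genes of the NK list were lower alike. The inhibitory receptor gene Klrc1 differed by -4.81 ± 0.41, the granule membrane gene Nkg7 by -4.00 ± 0.29, the interleukin-2 and interleukin-15 receptor chain gene Il2rb by -3.79 ± 0.31, and the T-box factor gene Eomes by -2.59 ± 0.25. The killing proteins granzyme B (Gzmb, 8.08, 8.40 and 8.18 in NOD against 11.83, 12.37 and 11.68 in B6, -3.74 ± 0.29), perforin (Prf1, -3.56 ± 0.22) and granzyme A (Gzma, -3.12 ± 0.36) were lower too, and granzyme A and Nkg7 were already lower in NOD after PBS (-2.72 ± 0.36 and -2.82 ± 0.29). The receptor genes Klra8 (-3.78 ± 0.28) and Klre1 (-3.67 ± 0.34), and Thy1, a surface protein of T and NK cells (-3.66 ± 0.25), belonged to the 15 lowest genes of the comparison. Klra8 too was above the array median only on the B6 arrays compared here. In a sorted sample fewer NK cells and less NK gene RNA per cell cannot be told apart. Without B6 replicate 2, the array highest in these genes, the list count was 16. With the filter set at 12 of 24 arrays, which leaves fewer genes to test, 8 NK markers were called lower.

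Marker lists of other cell types were measured in the same way. The T cell receptor complex genes Cd3e, Cd3d and Cd3g were not called and lay between 4.67 and 6.04 on the 6 arrays, and 3 of 10 measured T cell markers were lower, Thy1, Cd28 and Lat, with 1 higher, Cd5 (median -0.16). The summed T cell signal lay apart, at 10.33 to 10.60 in NOD and 11.02 to 11.76 in B6. That sum includes Thy1, also a gene of NK cells, at 6.34, 6.36 and 6.47 in NOD and 9.86, 10.86 and 9.44 in B6. It is therefore not a measure of T cells alone. B cell markers were higher in NOD for 5 of 13 and lower for 1 (median 0.87), a count that was 3 without NOD replicate 2 or NOD replicate 3 and 9 without NOD replicate 1. The antibody joining chain gene Jchain was at 8.14, 8.82 and 8.89 in NOD and 5.48, 5.77 and 5.56 in B6 (3.01 ± 0.42, adjusted p = 1.02e-05), and Mzb1, a chaperone gene of marginal zone B and plasma cells, differed by 1.65 ± 0.38. Both were higher in NOD after PBS too (2.73 ± 0.42 and 1.37 ± 0.38). Of 6 measured plasma cell markers 2 were higher, 1 was lower and 3 were not called (median 0.28). The summed plasma cell signal was 10.09 to 10.69 in NOD and 9.66 to 9.97 in B6. The summed B cell signal overlapped (11.26 to 12.23 in NOD, 11.15 to 11.54 in B6). Plasmacytoid dendritic cell and red pulp macrophage sums lay at 12.21 to 12.43 and 12.64 to 12.65 in NOD, and at 12.44 to 12.64 and 12.25 to 12.96 in B6. Of the remaining lists, monocyte markers had 1 higher and 1 lower of 8, neutrophil markers 2 higher of 6, and stromal markers 1 higher and 1 lower of 6. Over all genes tested 13.9% were higher and 9.21% lower. The basophil and mast cell sum was 8.47 to 8.58 in NOD and 9.25 to 9.65 in B6. In that list 1 of 2 measured markers was lower, Il6 (-1.47 ± 0.21), which is a cytokine gene described below. Mcpt8, Fcer1a, Cpa3 and Ms4a2 were too low to be tested, so this sum is no measure of those cells alone. The erythroid sum was 8.35 to 8.61 in NOD and 8.72 to 9.32 in B6, with 1 of 3 lower. The part of any of these cells in the other results was not tested.

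**Figure D1:**
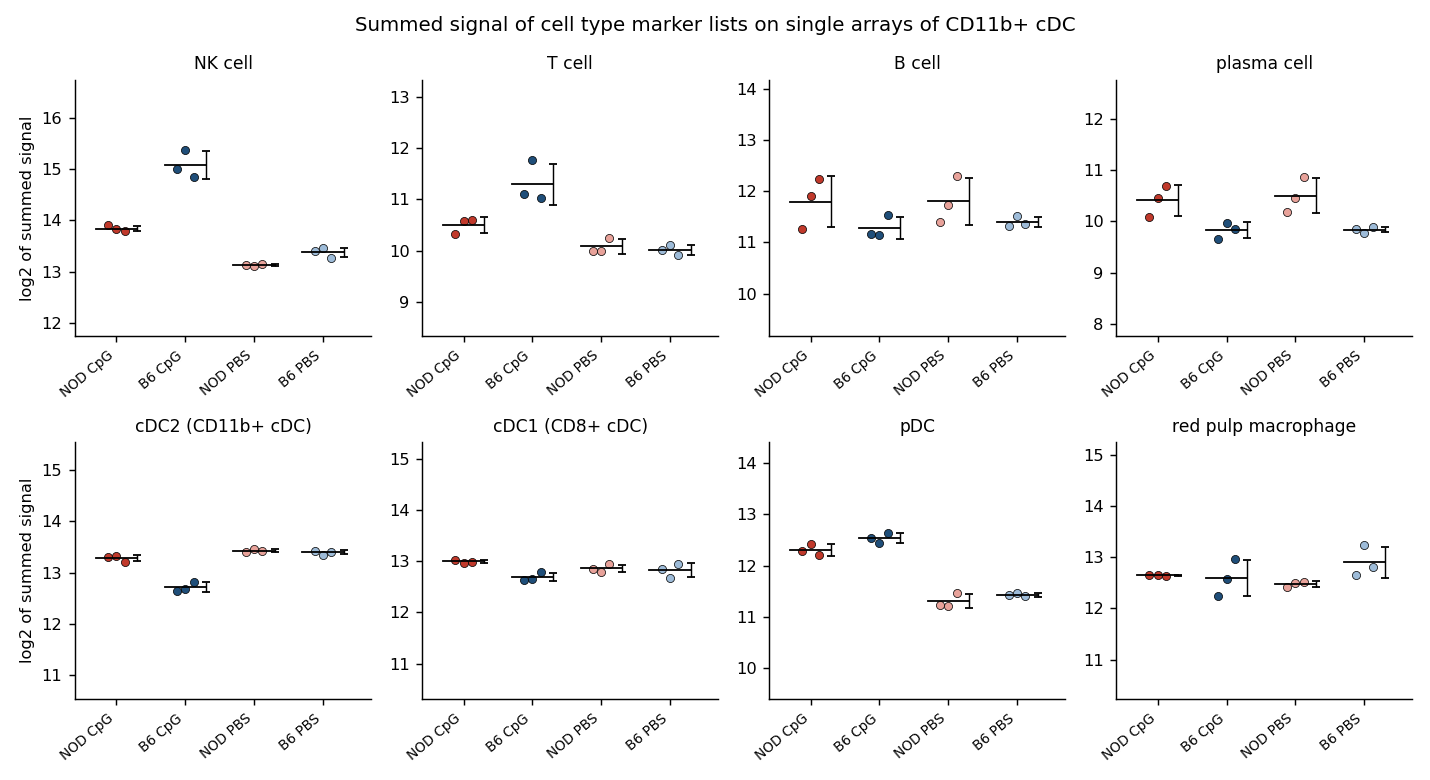
Summed signal (log2 of the sum of unlogged signals) of 8 cell type marker lists in CD11b+ cDC, with a point per array, a line at the mean of 3 arrays and a bar for the SD. The NK list lies at 13.79 to 13.90 in NOD and 14.85 to 15.38 in B6 after CpG, and the cDC2 list at 13.21 to 13.32 in NOD and 12.64 to 12.82 in B6.

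Over all genes, 2600 of 11235 were called between the strains after CpG, 1565 higher and 1035 lower in NOD, and of these 273 were at least 2-fold higher and 242 at least 2-fold lower. With each array centred on its median over the genes tested, the same comparison called 1260 higher and 1411 lower, so the balance of small differences depends on the scaling. After PBS, 628 genes (5.59%) were called, 271 higher (2.41%) and 357 lower (3.18%). Of the calls after CpG, 407 were also called in the same direction after PBS, which is 15.7% of the calls after CpG and 64.8% of those after PBS. The opposite direction was called for 7 genes, Cd86, Clec9a, Ivd, Klrb1b, Mctp2, Pid1 and Rab6a, named here after their values were seen. In CD8+ cDC after CpG, 2271 genes (20.2%) differed between the strains, 1391 higher (12.4%) and 880 lower (7.83%), or 937 higher and 1450 lower with median centring and 152 higher and 239 lower on the 6 CD8+ arrays alone, and 1037 calls had the same direction in both subsets, 39.9% of those in CD11b+ cDC and 45.7% of those in CD8+ cDC. The CD8+ count depended on single arrays, being 1114 without NOD CD8+ replicate 3, 1453 without B6 CD8+ replicate 2, 1469 without B6 CD8+ replicate 1 and 3946 without NOD CD8+ replicate 1. In all 3 strain comparisons, which share no arrays, 205 genes were called in 1 direction, 105 higher and 100 lower in NOD. The dependence of the strain difference on CpG was tested as an interaction, which called 492 genes (4.38%), 270 with a higher value (2.40%) and 222 with a lower value (1.98%). With median centring these were 219 and 293. It called 297 without NOD CpG replicate 2, 314 without B6 CpG replicate 1 and 316 without B6 PBS replicate 1, and it uses the same CpG arrays as the main comparison.

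**Figure D2:**
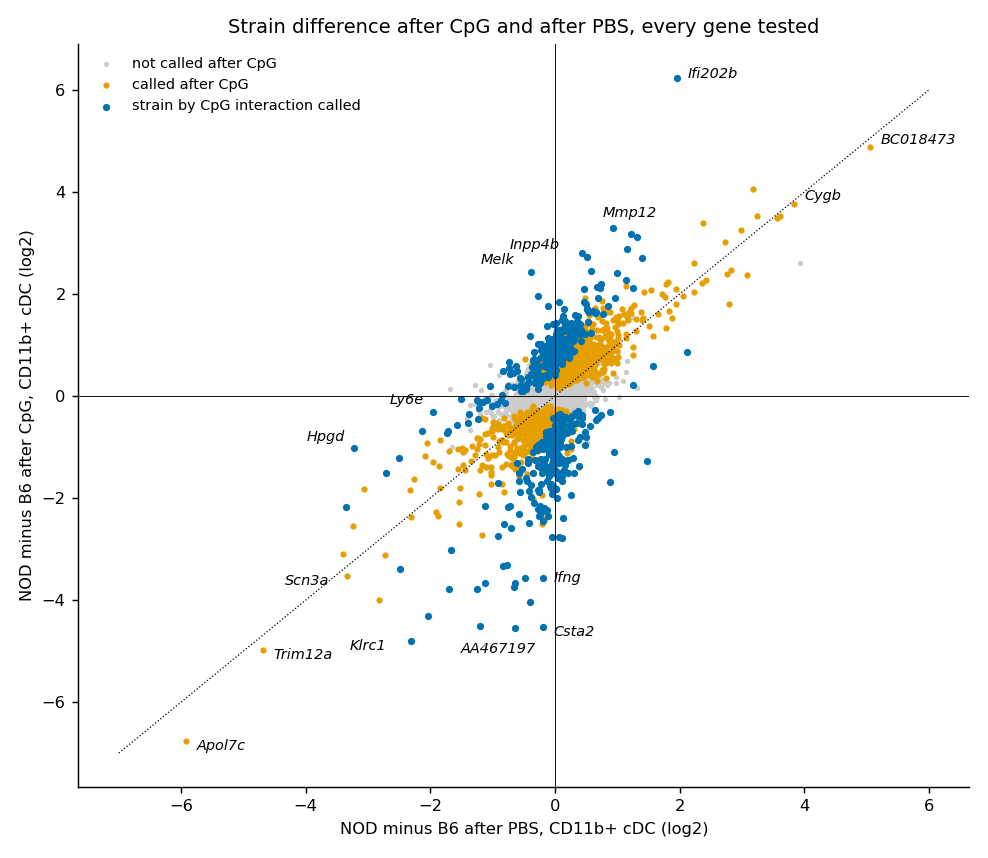
NOD minus B6 in CD11b+ cDC after CpG (vertical axis, log2) against the same difference after PBS (horizontal axis, log2), with a point for each of 11235 genes, orange where the difference after CpG was called and blue where its dependence on CpG was called. Genes such as Apol7c, Trim12a, Cygb and BC018473 lie near the dotted line of equal differences, while Ifi202b (6.24 after CpG, 1.95 after PBS), Csta2 (-4.52 and -0.20) and Hpgd (-1.01 and -3.23) lie away from it.

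The largest fitted difference above B6 was that of Ifi202b, an interferon-inducible member of the Ifi200 family that binds DNA. It stood at 9.94, 9.79 and 9.01 on the NOD arrays and 2.98, 3.60 and 3.43 on the B6 arrays, a difference of 6.24 ± 0.23 (adjusted p = 3.26e-15). The B6 values lie below the array medians of 5.78 to 5.87, as do those of the lower strain for Apol7c, Trim12a, BC018473, Klrb1c, Csta2 and Zfp872, and a difference set against so dim a signal gives no exact fold. After PBS the NOD arrays gave 5.35, 5.14 and 5.29 and the B6 arrays 3.24, 3.26 and 3.41. The CpG change was 4.32 in NOD and 0.03 in B6, and the interaction was 4.29 ± 0.32 (adjusted p = 2.06e-08). A second Ifi200 gene, Ifi208, was at 7.87, 8.08 and 7.45 in NOD and 5.63, 6.30 and 5.59 in B6 (1.96 ± 0.28), with no difference called after PBS (-0.27 ± 0.28) and an interaction of 2.23 ± 0.39. Their promoters are shown because both genes belong to an interferon-inducible family, taken from RefSeq for build GRCm38.p6, which is the B6 sequence, from 250 bases before to 50 bases after the annotated start. Ifi202b lies at chr1:173982795-173983094 on the minus strand and Ifi208 at chr1:173673415-173673714 on the plus strand. Capitals mark a match to the interferon-gamma-activated site pattern TTCNNNGAA in Ifi202b and to the interferon-stimulated response element pattern, GAAA followed by any 2 bases and GAAA again, in Ifi208.
Ifi202b: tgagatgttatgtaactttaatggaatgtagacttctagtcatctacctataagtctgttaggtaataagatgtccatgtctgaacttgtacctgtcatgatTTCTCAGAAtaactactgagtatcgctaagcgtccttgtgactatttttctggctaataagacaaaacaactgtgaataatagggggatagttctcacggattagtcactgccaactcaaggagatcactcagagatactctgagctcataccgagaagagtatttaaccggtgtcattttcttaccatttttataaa
Ifi208: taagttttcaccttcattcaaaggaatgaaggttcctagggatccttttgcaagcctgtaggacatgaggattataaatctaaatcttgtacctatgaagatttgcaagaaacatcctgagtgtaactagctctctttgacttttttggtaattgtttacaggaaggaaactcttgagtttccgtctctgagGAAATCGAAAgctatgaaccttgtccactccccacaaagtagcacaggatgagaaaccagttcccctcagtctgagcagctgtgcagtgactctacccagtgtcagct
Searched on both strands, the first pattern occurs in 8.30% and the second in 3.44% of all 32851 promoters of that length in the table, and a match is no evidence of binding. An NF-kB pattern, GGGA followed by any 2 bases and TTCC, was searched too and occurs in 1.47%.

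Most of the other large NOD excesses were present after PBS. BC018473 was at 9.80, 9.21 and 9.29 in NOD and 4.89, 4.32 and 4.46 in B6 (4.88 ± 0.22, after PBS 5.06 ± 0.22). Klra17, of the Ly49 receptor family, was at 9.46, 9.44 and 9.63 in NOD and 5.64, 5.23 and 5.50 in B6 (4.05 ± 0.26), and Cygb, which encodes the heme protein cytoglobin, at 11.11, 11.32 and 10.85 in NOD and 7.47, 7.17 and 7.34 in B6 (3.77 ± 0.17, after PBS 3.83 ± 0.17). The arrays of the strains did not overlap for these 3 genes, as for 40.9% of all genes tested. Others of this kind were the zinc finger gene Zfp979 (3.53 ± 0.21), the sialyltransferase gene St6galnac2 (3.53 ± 0.19), the immunoglobulin light chain segment Igkv5-43 (3.49 ± 0.57), the homeobox gene Vsx1 (3.26 ± 0.16) and the metalloprotease-like gene Adamdec1 (3.39 ± 0.26), with 3.24, 3.61, 3.56, 2.99 and 2.38 after PBS.

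For a group of high genes the strain difference grew with CpG. Mmp12, which encodes macrophage elastase, was at 9.40, 9.87 and 9.29 in NOD and 6.14, 6.18 and 6.36 in B6 after CpG (3.29 ± 0.19), and at 10.66, 10.90 and 10.40 in NOD and 9.64, 9.88 and 9.62 in B6 after PBS. It was lower after CpG than after PBS in both strains, with changes of -1.13 in NOD and -3.49 in B6, and the interaction was 2.36 ± 0.28. Npl, the sialic acid lyase gene, had CpG changes of 0.24 in NOD and -1.72 in B6 (the first not called, 3.18 ± 0.19 between strains, interaction 1.96 ± 0.26). Inpp4b, a phosphoinositide phosphatase gene, was at 8.25, 8.43 and 8.17 in NOD and 5.61, 5.07 and 5.76 in B6, with CpG changes of 1.30 and -1.08 that ran in opposite directions (interaction 2.38 ± 0.25). The class I-like gene H2-M2 (2.88 ± 0.20, interaction 1.73 ± 0.29), the olfactory receptor family gene Olfr111 (3.11 ± 0.26) and the kinase gene Melk (2.44 ± 0.16, after PBS -0.38 ± 0.16, interaction 2.82 ± 0.23) were also higher in NOD after CpG.

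At the other end, Apol7c, an apolipoprotein L gene, was at 4.85, 4.79 and 5.32 in NOD and 11.88, 11.53 and 11.85 in B6, a difference of -6.77 ± 0.28 (adjusted p = 3.17e-14), with the NOD signal below the array medians, and Trim12a, a member of the TRIM5-like ubiquitin ligases, at 4.47, 4.34 and 4.12 in NOD and 9.22, 9.28 and 9.37 in B6 (-4.98 ± 0.18). Both gaps were there after PBS (-5.92 ± 0.28 and -4.69 ± 0.18). In CD8+ cDC after CpG the Trim12a difference was -4.86 ± 0.18 and that of Apol7c smaller (-2.11 ± 0.28). Apol10b, of the same family as Apol7c, was lower (-2.74 ± 0.21), as were the histone gene H2bc8 (-2.55 ± 0.21) and the protease inhibitor gene Spint1 (-2.18 ± 0.18). The 2 promoters at the head of this group lie at chr15:77533266-77533565 on the minus strand and chr7:104315446-104315745 on the minus strand. Both hold the interferon-stimulated response element pattern on the strand opposite to the one printed. Capitals mark its reverse complement, whose matches overlap in Apol7c, while the Trim12a match lies after the annotated start.
Apol7c: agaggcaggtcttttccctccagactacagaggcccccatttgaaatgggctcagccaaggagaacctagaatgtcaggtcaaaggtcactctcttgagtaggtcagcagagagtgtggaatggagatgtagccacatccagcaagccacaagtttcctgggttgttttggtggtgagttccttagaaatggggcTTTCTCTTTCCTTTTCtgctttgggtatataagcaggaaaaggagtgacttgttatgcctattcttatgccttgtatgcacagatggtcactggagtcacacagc
Trim12a: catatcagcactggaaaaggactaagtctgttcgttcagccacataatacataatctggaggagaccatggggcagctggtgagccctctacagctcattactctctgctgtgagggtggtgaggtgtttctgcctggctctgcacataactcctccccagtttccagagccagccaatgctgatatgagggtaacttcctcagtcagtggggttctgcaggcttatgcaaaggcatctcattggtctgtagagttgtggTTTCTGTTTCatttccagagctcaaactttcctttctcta
This pattern was found in 4.69% of the promoters of genes called lower in NOD, 3.07% of those called higher and 3.20% of those of all genes tested, and these shares are a description.

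A further group was not called after PBS and was far lower in NOD after CpG. AA467197, the mouse counterpart of human NMES1, was at 6.81, 6.14 and 6.20 in NOD and 11.02, 10.94 and 10.84 in B6 after CpG, and at 4.54, 4.04 and 4.16 in NOD and 5.49, 4.55 and 4.61 in B6 after PBS. CpG went with a rise of 2.14 ± 0.29 in NOD and 6.05 ± 0.29 in B6, and the interaction was -3.92 ± 0.40 (adjusted p = 2.11e-06). Csta2, which encodes a stefin-type inhibitor of cysteine proteases, was at 3.61, 3.10 and 3.37 in NOD and 7.66, 8.04 and 7.94 in B6, with CpG changes of 0.42 (not called) and 4.75 (interaction -4.33 ± 0.31). Zfp872, a zinc finger gene, was at 4.11, 3.86 and 4.21 in NOD and 8.37, 7.69 and 8.24 in B6, with CpG changes of -0.02 (not called) and 3.61 (interaction -3.63 ± 0.32). The 3 genes were lower in NOD in CD8+ cDC after CpG as well, at -4.69 ± 0.29, -3.88 ± 0.22 and -5.63 ± 0.23. The part of NK RNA in these differences was not tested.

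**Figure D3:**
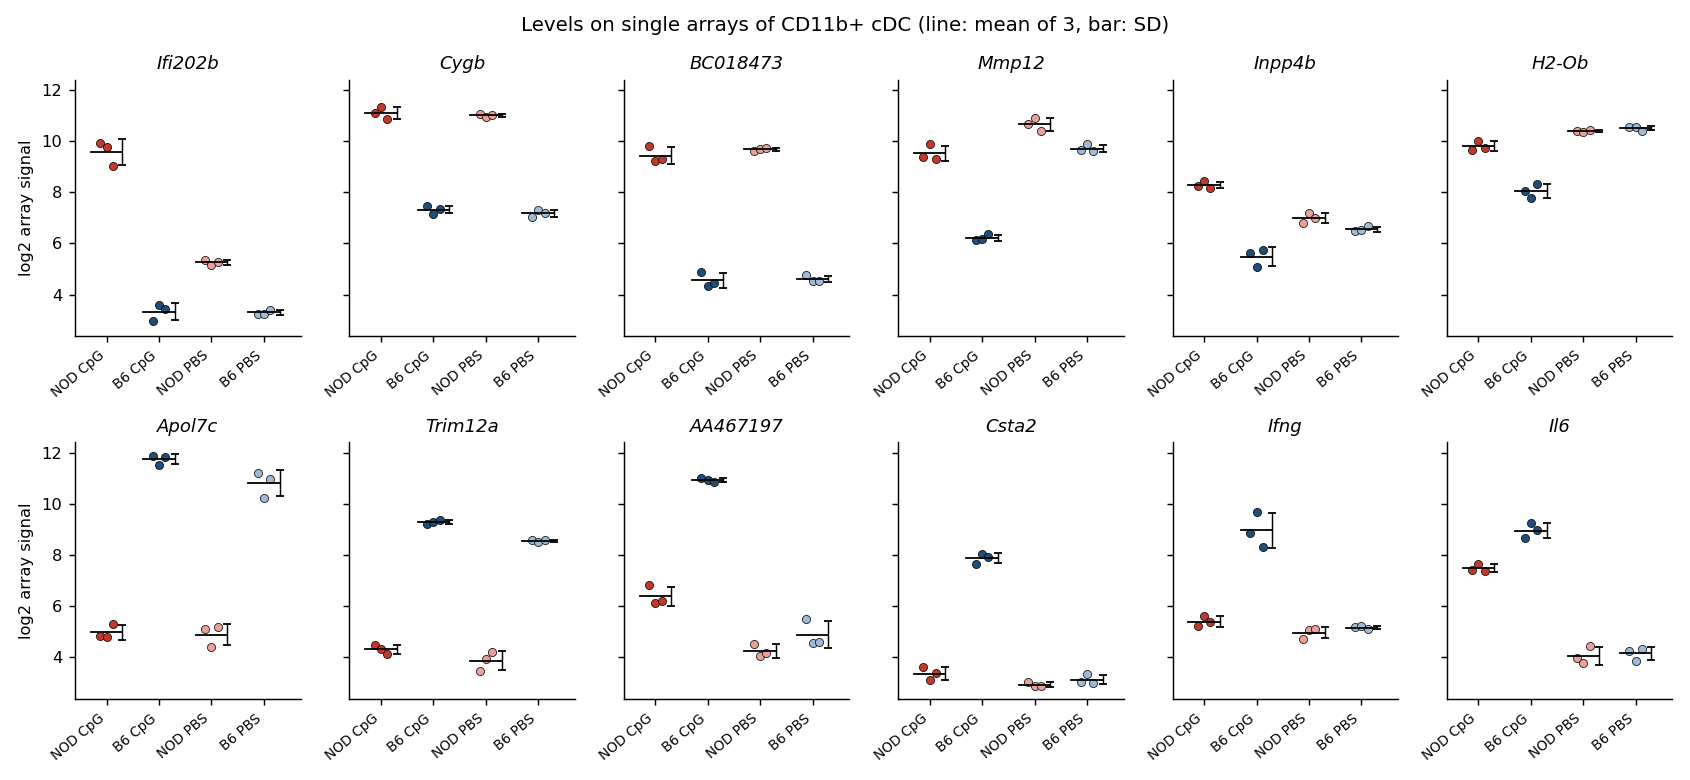
Log2 array signal of 12 genes in CD11b+ cDC, with a point per array for NOD and B6 after CpG and after PBS, a line at the mean of 3 and a bar for the SD. Ifi202b, Cygb, BC018473, Mmp12, Inpp4b and H2-Ob lie higher in NOD after CpG, and Apol7c, Trim12a, AA467197, Csta2, Ifng and Il6 lie lower. The 3 NOD and 3 B6 arrays after CpG do not overlap for these genes, as for 40.9% of all genes tested.

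The interferon system was compared from the ligand to the target genes. Ifnb1, the interferon beta gene, was above the array median (5.78 to 5.87) on too few arrays to be tested. It was at 3.87, 3.97 and 4.55 on the NOD arrays and 5.07, 5.65 and 5.94 on the B6 arrays. These do not overlap, as for 40.9% of all genes tested. With no filter on low values the Ifnb1 difference was -1.42 ± 0.25 (adjusted p = 0.000272). Among 25 receptor, STAT, IRF and feedback genes, 7 were lower and 1 was higher (median -0.17). Stat4, which relays interleukin-12 and interferon signals, was at 7.94, 7.45 and 7.26 in NOD and 9.82, 10.05 and 9.71 in B6 (-2.31 ± 0.27, interaction -1.73 ± 0.38), and in CD8+ cDC the difference was -1.43 ± 0.27. Irf8, a transcription factor of dendritic cells, was at 8.91, 8.81 and 8.97 in NOD and 10.13, 10.31 and 9.96 in B6 (-1.24 ± 0.14), while in CD8+ cDC it was not called (0.29 ± 0.14), and the strain difference depended on the subset (-1.53 ± 0.19). The kinase gene Tyk2 was lower (-0.95 ± 0.16), as was Socs2, an inhibitor of cytokine signals (-1.15 ± 0.21), and the interferon gamma receptor gene Ifngr1 was higher (1.08 ± 0.18).

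The antiviral target genes came next. Of 40 measured type I interferon-stimulated genes 8 were lower and 0 higher in NOD after CpG (median -0.25), a count that was 3 without NOD replicate 3, 4 without B6 replicate 1 or B6 replicate 3 and 5 without B6 replicate 2. The lower count was 16 with array weights, 13 on the 12 CD11b+ arrays alone and 4 with no filter. After PBS 16 of them were lower (median -0.47), and in CD8+ cDC after CpG 21 (median -0.49). Trim25, a ubiquitin ligase gene that activates the RNA sensor RIG-I, was at 9.21, 9.04 and 8.97 in NOD and 10.00, 9.95 and 9.98 in B6 (-0.91 ± 0.11), Oasl1 differed by -0.84 ± 0.20 and Eif2ak2, which encodes the kinase PKR, by -0.66 ± 0.13. Of 10 Ifi200 genes 4 were higher and 2 lower, and the count higher was 2 without B6 replicate 1 or NOD replicate 1. Ifi213 was the lower one with the larger difference (-1.18 ± 0.30, after PBS -2.08 ± 0.30). Gbp2b, a guanylate-binding protein gene, was the member of 10 interferon-inducible GTPases called higher (8.70, 8.36 and 7.61 in NOD and 6.54, 6.19 and 6.17 in B6, 1.92 ± 0.20), and Iigp1, an immunity-related GTPase gene, was among the 3 lower (-0.92 ± 0.17). That lower count was 1 without B6 replicate 2, B6 replicate 3, NOD replicate 2 or NOD replicate 3. Slfn4, a schlafen gene of activated myeloid cells, was at 9.51, 9.28 and 8.42 in NOD and 10.66, 10.92 and 10.63 in B6 (-1.67 ± 0.25), and its strain difference depended on CpG (-1.78 ± 0.36). Ly6e, an interferon-inducible surface protein gene, was lower in NOD after PBS (-1.96 ± 0.19) and not called after CpG (-0.31 ± 0.19, interaction 1.65 ± 0.27).

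The CpG receptor itself was not called. Tlr9 stood at 10.99, 10.94 and 10.58 in NOD and 10.82, 10.85 and 10.93 in B6, groups that overlap, with a difference of -0.03 ± 0.11 (adjusted p = 0.886), and it was 1.09 and 1.11 higher after CpG than after PBS in NOD and B6. Of 18 measured genes of the TLR9 and MyD88 route 2 were called higher and 1 lower, with a median of 0.08, beside 23.1% called over all genes. Among 12 genes of the other Toll-like receptors and their partners 6 were higher in NOD and 0 lower (median 0.48), against 0 higher after PBS. Tlr3, the receptor for double-stranded RNA, was at 8.77, 8.85 and 8.28 in NOD and 7.38, 7.54 and 7.64 in B6 (1.11 ± 0.22, interaction 1.14 ± 0.31), and Tlr6 (0.97 ± 0.16), a partner of Toll-like receptor 2, and Cd180 (0.78 ± 0.18), a Toll-like receptor homologue, were higher as well. Downstream, 5 of 20 NF-kB subunits and targets were lower and 1 higher (median -0.28), a lower count that was 3 without NOD replicate 3 and 8 without NOD replicate 1 and reached 11 with a fixed replicate block. Tnip3, an inhibitor of NF-kB signalling that NF-kB itself induces, was at 5.91, 5.44 and 5.50 in NOD and 7.09, 6.82 and 7.49 in B6 (-1.52 ± 0.26).

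Cytokine genes were mostly lower in NOD after CpG. Of 18 measured genes 10 were lower and 2 higher (median -0.66), against 2 lower and 0 higher after PBS. Il6, an inflammatory cytokine gene, was at 7.40, 7.66 and 7.38 in NOD and 8.66, 9.25 and 8.96 in B6 after CpG (-1.47 ± 0.21, adjusted p = 1.48e-05), and at 3.97, 3.77 and 4.45 in NOD and 4.26, 3.85 and 4.34 in B6 after PBS. CpG went with rises of 3.42 in NOD and 4.80 in B6, and the interaction was -1.39 ± 0.30. Il12b, the gene of the p40 chain of interleukin-12 and interleukin-23, was at 10.00, 9.31 and 10.21 in NOD and 10.89, 10.77 and 10.80 in B6 (-0.98 ± 0.17), with no interaction called. Il1rn, the interleukin-1 receptor antagonist gene, was lower (8.94, 8.57 and 8.48 in NOD against 10.39, 10.47 and 10.34 in B6, -1.74 ± 0.18, interaction -1.34 ± 0.26). Il15, which sustains NK and memory T cells, was lower after CpG (-1.36 ± 0.20) and after PBS (-1.48 ± 0.20), and Il27 was lower after CpG (-0.72 ± 0.18). Ltb, the lymphotoxin beta gene, was the larger of the 2 increases (10.66, 10.96 and 10.63 in NOD against 9.25, 9.14 and 9.62 in B6, 1.41 ± 0.22, interaction 1.24 ± 0.31). In CD8+ cDC after CpG Il6 differed by -1.15 ± 0.21, Il12b by -1.32 ± 0.17 and Il1rn by -1.71 ± 0.18.

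Ifng had the largest cytokine difference. It was at 5.21, 5.61 and 5.37 in NOD and 8.88, 9.70 and 8.32 in B6 (-3.57 ± 0.22, interaction -3.37 ± 0.32), highest on B6 replicate 2, and in CD8+ cDC the difference was -0.31 ± 0.22 and not called. Interferon gamma is made chiefly by NK and T cells, and the NK list moved with it (summed signal 13.79 to 13.90 in NOD, 14.85 to 15.38 in B6). The T cell sum, which includes Thy1 as well as the Cd3 genes that were not called, moved with it too (10.33 to 10.60 in NOD, 11.02 to 11.76 in B6). The same holds for Xcl1 (-3.02 ± 0.27), the ligand of Xcr1 and a member of the NK list, for Ccl4 (-1.46 ± 0.32), and for the interleukin-18 receptor gene Il18rap (5.07, 5.11 and 5.27 in NOD against 7.64, 8.05 and 7.24 in B6, -2.49 ± 0.17), and the part of NK or T cell RNA in them was not tested. Of 18 chemokine genes 6 were lower and 0 higher (median -0.31). Ccl22, a chemokine of mature dendritic cells that attracts regulatory T cells, was at 6.88, 6.40 and 6.63 in NOD and 8.45, 8.27 and 8.36 in B6 (-1.72 ± 0.19), and its strain difference depended on the subset (-1.80 ± 0.27), as in CD8+ cDC it was 0.08 ± 0.19. Cxcl16, the ligand of Cxcr6, was lower by a smaller amount (-0.67 ± 0.15). Of 16 chemokine receptor genes 4 were lower and 1 higher, beside 9.21% lower and 13.9% higher over all genes tested. Ccr7, which guides dendritic cells to the T cell zone, was at 11.94, 11.44 and 11.08 in NOD and 12.44, 12.29 and 12.36 in B6 (-0.88 ± 0.19, after PBS -0.83 ± 0.19), and Cxcr5, the receptor for the B cell follicle chemokine Cxcl13, was lower (-1.50 ± 0.30).

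Maturation genes were lower in NOD or not called. Of 24 co-stimulation and maturation genes 11 were lower and 0 higher (median -0.31), a count that was 6 without B6 replicate 1 or NOD replicate 3 and 7 without B6 replicate 3. Tnfrsf9, which encodes the co-stimulatory receptor 4-1BB, was at 6.17, 6.22 and 6.16 in NOD and 8.42, 8.59 and 8.18 in B6 (-2.21 ± 0.12, interaction -1.94 ± 0.18). Cd200, an inhibitory ligand of mature dendritic cells, was at 8.92, 8.76 and 8.66 in NOD and 10.69, 10.59 and 10.62 in B6 (-1.85 ± 0.20, interaction -1.43 ± 0.28), and Il2ra, the interleukin-2 receptor alpha gene, at 8.32, 7.91 and 7.84 in NOD and 9.93, 9.86 and 9.80 in B6 (-1.84 ± 0.23, interaction -1.58 ± 0.33). All 3 pairs of groups lay apart, as for 40.9% of all genes tested. In CD8+ cDC all 3 were lower in NOD too, with -1.32 ± 0.20 for Cd200, -1.82 ± 0.23 for Il2ra and -0.40 ± 0.12 for Tnfrsf9. The classical ligand genes differed little. Cd86, which binds CD28, was at 10.54, 10.34 and 9.89 in NOD and 10.77, 10.62 and 10.68 in B6 (-0.43 ± 0.13), and this call was lost when B6 replicate 1 or NOD replicate 3 was left out (adjusted p up to 0.149), while after PBS it was higher in NOD (0.68 ± 0.13) and the interaction was -1.12 ± 0.18. Cd40 differed by -0.37 ± 0.12, and this call was lost when B6 replicate 1, B6 replicate 3 or NOD replicate 3 was left out (adjusted p up to 0.245).

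Genes of MHC class II presentation were higher in NOD where they were called. Of 12 measured MHC class II genes 7 were higher and 0 lower in NOD after CpG (median 0.28), and this count was 7 whichever of the 6 arrays was left out. B cells also carry class II, and on these arrays 5 of 13 B cell markers were higher in NOD (median 0.87, summed signal 11.26 to 12.23 in NOD and 11.15 to 11.54 in B6), while the NK sum was lower, and their part was not tested. After PBS 0 were higher and 2 lower (median -0.11), and the interaction was called for 7, all positive. H2-Ob and H2-Oa encode the chains of H2-O, which restrains peptide loading. H2-Ob was at 9.65, 10.02 and 9.73 in NOD and 8.04, 7.77 and 8.31 in B6 after CpG (1.76 ± 0.16, adjusted p = 2.82e-08), and at 10.40, 10.35 and 10.42 in NOD and 10.56, 10.55 and 10.41 in B6 after PBS. Its CpG change was -0.59 in NOD and -2.47 in B6 (interaction 1.88 ± 0.23). H2-Oa differed by 1.03 ± 0.14 (interaction 1.24 ± 0.20). Ciita, the master activator of class II genes, was at 9.77, 9.95 and 10.05 in NOD and 8.85, 8.71 and 9.17 in B6 (1.01 ± 0.20, interaction 0.98 ± 0.28). The loading catalyst chain gene H2-DMa (0.73 ± 0.16, interaction 1.07 ± 0.22), the ubiquitin ligase gene Marchf1, whose product removes class II from the surface (1.03 ± 0.15), and the chain gene H2-Eb1 (0.37 ± 0.07) were higher too. In CD8+ cDC after CpG 5 of the list were higher and 0 lower. For MHC class I genes and peptide loading 3 of 19 were higher and 8 lower (median -0.23), the lower count being 5 without B6 replicate 1, and the largest difference was that of Cd1d1, which presents lipids to NKT cells (-1.33 ± 0.16).

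**Figure D4:**
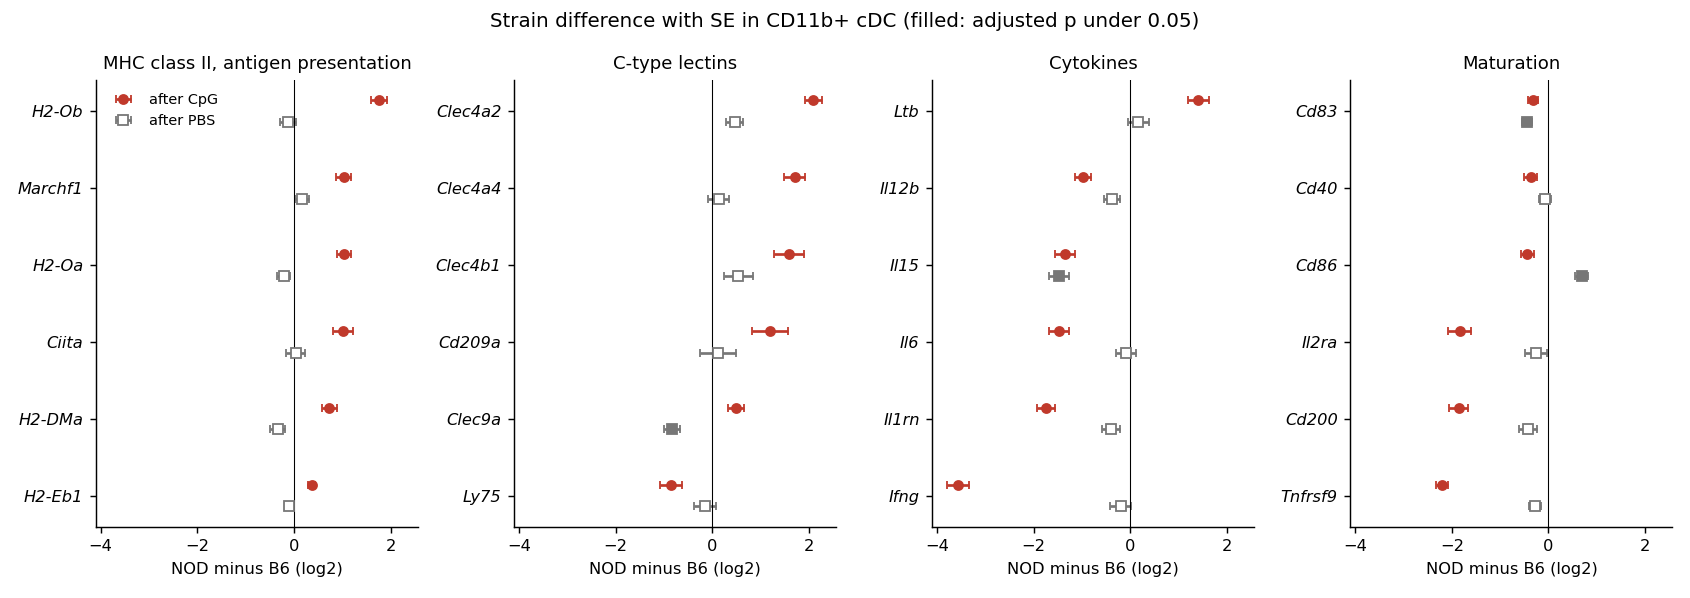
NOD minus B6 (log2, horizontal axis) with its SE for 24 genes in CD11b+ cDC after CpG (red circles) and after PBS (grey squares), filled where the adjusted p was under 0.05. MHC class II genes and the C-type lectins other than Ly75 lie to the right of zero after CpG, from 0.37 for H2-Eb1 to 2.09 for Clec4a2, and cytokine and maturation genes other than Ltb lie to the left.

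The subset's own markers were higher in NOD after CpG where they were called. Of 16 cDC2 markers 7 were higher and 0 lower (median 0.58), with summed signals of 13.21 to 13.32 in NOD and 12.64 to 12.82 in B6, and after PBS 0 were higher and 1 lower. The rise was not particular to this list, as the summed cDC1 signal lay apart too (12.97 to 13.03 in NOD, 12.63 to 12.79 in B6). Of 10 pan-cDC markers 2 were higher and 3 lower (median -0.02). The pan-cDC sums overlapped (14.25 to 14.48 in NOD, 14.35 to 14.53 in B6). The NK markers, lower in NOD on these arrays, moved the opposite way to the cDC2 list. A larger share of cDC2 and more cDC2 RNA per cell cannot be told apart. Clec4a4, which encodes the inhibitory lectin DCIR2 of CD11b+ cDC, was at 9.07, 9.09 and 8.68 in NOD and 6.98, 7.26 and 7.46 in B6 after CpG (1.71 ± 0.22), and at 8.67, 9.46 and 9.10 in NOD and 8.86, 9.16 and 8.80 in B6 after PBS. CpG went with a change of -0.13 in NOD, not called, and -1.71 in B6 (interaction 1.58 ± 0.31). Clec4a2, its neighbour in family, was at 7.42, 7.53 and 7.66 in NOD and 5.32, 5.39 and 5.63 in B6 (2.09 ± 0.17, interaction 1.63 ± 0.24), and Clec4b1 differed by 1.59 ± 0.30. Over the 22 C-type lectins 6 were higher and 2 lower, and the higher count was 3 without B6 replicate 1. The lower ones included Ly75, which encodes the endocytic receptor DEC-205 (-0.86 ± 0.22). Clec9a, the lectin that binds dead cells, was lower in NOD after PBS (-0.84 ± 0.17) and higher after CpG (0.49 ± 0.17), and this call was lost when B6 replicate 1, B6 replicate 2 or NOD replicate 1 was left out (adjusted p up to 0.202). The interaction was 1.33 ± 0.23.

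Of the other subset genes, Sirpa was at 11.01, 11.16 and 11.21 in NOD and 10.29, 10.24 and 10.54 in B6 (0.77 ± 0.18), the inhibitory receptor gene Cd300a differed by 0.95 ± 0.16 and Cd4, which part of the splenic cDC2 carry, by 0.78 ± 0.20. Itgax, which encodes CD11c, was at 10.78, 10.84 and 10.92 in NOD and 9.99, 9.92 and 10.11 in B6 (0.84 ± 0.18, interaction 0.96 ± 0.26), its level after CpG being -0.33 in NOD (not called) and -1.29 in B6 relative to PBS. Genes typical of CD8+ cDC were mixed, with 9 of 19 higher and 3 lower (median 0.49), and the higher count was 4 without B6 replicate 1 and 5 without B6 replicate 2. Wdfy4, needed for cross-presentation, was higher (10.42, 10.72 and 10.83 in NOD against 9.05, 8.77 and 9.36 in B6, 1.59 ± 0.17), and a further probe set of the gene gave 1.57. Transcription factor genes were lower more often than higher, with 10 of 28 lower and 4 higher (median -0.17). Nfil3, a basic leucine zipper factor needed for several lymphoid and dendritic lineages, was at 6.58, 6.49 and 6.33 in NOD and 8.49, 9.03 and 8.36 in B6 (-2.16 ± 0.21, interaction -1.92 ± 0.30), and in CD8+ cDC it was -2.01 ± 0.21. Bcl11a, a zinc finger factor of lymphoid and plasmacytoid lineages, was higher (9.43, 9.62 and 9.71 in NOD against 7.94, 7.97 and 8.61 in B6, 1.42 ± 0.21, interaction 1.45 ± 0.29). Tbx21, the T-bet gene and a member of the NK list, was lower (-0.79 ± 0.15), as was Batf (-0.69 ± 0.12). The laminin receptor chain gene Itga6 was lower (4.40, 4.56 and 5.03 in NOD against 6.72, 6.88 and 6.98 in B6, -2.20 ± 0.18), and Kit was higher (0.91 ± 0.15).

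Lipid mediator genes changed in both directions. In the prostaglandin and leukotriene pathway 5 of 15 measured genes were higher in NOD and 2 lower (median 0.07). Synthesis genes were among the higher ones. Hpgds, the prostaglandin D synthase gene of hematopoietic cells, was at 7.12, 7.24 and 6.95 in NOD and 5.79, 5.23 and 5.89 in B6 (1.47 ± 0.22), Pla2g4a, whose product releases arachidonic acid, differed by 1.24 ± 0.14, and the leukotriene genes Alox5ap and Lta4h by 1.22 ± 0.23 and 0.94 ± 0.21. The receptor gene Ptger3 was higher as well (0.77 ± 0.21), and this call was lost when B6 replicate 1 or NOD replicate 2 was left out (adjusted p up to 0.107). Ptger4, which encodes the prostaglandin E2 receptor EP4, was at 8.84, 8.43 and 8.39 in NOD and 9.66, 9.73 and 9.56 in B6 (-1.10 ± 0.19), and Hpgd, which breaks prostaglandins down, at 5.47, 5.58 and 5.68 in NOD and 6.20, 6.86 and 6.71 in B6 (-1.01 ± 0.22). The Hpgd gap was wider after PBS (6.05, 6.56 and 6.11 in NOD and 9.44, 9.59 and 9.36 in B6, -3.23 ± 0.22), as CpG went with a change of -0.66 in NOD and -2.87 in B6 (interaction 2.21 ± 0.31).

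Of 18 inflammasome and interleukin-1 family genes 6 were higher and 4 lower in NOD (median 0.04), and the lower count was 1 without NOD replicate 3 and 2 without B6 replicate 1 or B6 replicate 3. Several sensor genes were higher. Nlrp1a was at 7.39, 7.62 and 7.57 in NOD and 5.51, 5.78 and 5.53 in B6 (1.92 ± 0.19, after PBS 0.96 ± 0.19), Nlrp3, which senses membrane damage, differed by 1.17 ± 0.22, and Nlrc4, which acts with sensors of bacterial flagellin, by 1.03 ± 0.17 (interaction 1.30 ± 0.25). Il1r2, the decoy receptor for interleukin-1, was at 7.28, 8.52 and 7.71 in NOD and 5.65, 6.15 and 5.26 in B6 (2.15 ± 0.27), with 0.10 ± 0.27 in CD8+ cDC, and its strain difference depended on the subset (2.05 ± 0.38).

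Genes of cell death and of the Gimap family, GTPases of lymphocyte survival, were lower where they were called. Of 20 death receptor, necroptosis and BCL-2 family genes 8 were lower and 0 higher (median -0.20). Fas, the death receptor gene, was at 7.90, 7.40 and 7.52 in NOD and 9.24, 8.94 and 9.36 in B6 (-1.58 ± 0.26), the survival gene Bcl2 differed by -1.53 ± 0.24 (interaction -1.55 ± 0.33) and the pro-apoptotic Bcl2l11 by -1.26 ± 0.16 (interaction -1.38 ± 0.22). Bcl2 was at 6.03, 6.33 and 6.88 in NOD and 7.66, 8.62 and 7.56 in B6, and in CD8+ cDC its difference was not called (0.30 ± 0.24). Fasl, the ligand gene of cytotoxic lymphocytes, was at 4.77, 4.87 and 4.79 in NOD and 7.59, 8.28 and 6.91 in B6 (-2.78 ± 0.21). It was above the array median only on these B6 arrays and passed the filter through them. All 7 of 7 measured Gimap genes were lower (median -2.41), against 0 after PBS and 0 in CD8+ cDC after CpG. Gimap3 was above the array median only on the 3 B6 arrays compared here and passed the filter through them. This count and median therefore partly rest on the group where such genes are high. Gimap7 was at 5.29, 5.33 and 5.77 in NOD and 7.94, 9.44 and 7.33 in B6 (-2.77 ± 0.38, interaction -2.73 ± 0.54) and Gimap3 at 4.59, 4.57 and 5.31 in NOD and 7.61, 8.47 and 6.67 in B6 (-2.76 ± 0.33). Bcl2, Fasl, Gimap7 and Gimap3 were highest on B6 replicate 2, the array highest in the NK list, whose summed signal was 13.79 to 13.90 in NOD and 14.85 to 15.38 in B6, and the part of NK RNA in them was not tested. With the filter set at 12 of 24 arrays 3 Gimap members were called lower. Without B6 replicate 2 those called lower numbered 5.

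Genes linked to tolerance and to NOD diabetes regions showed no common direction. Of 21 tolerance-associated genes 5 were higher and 6 lower (median -0.13), and the higher count was 3 without NOD replicate 3. Havcr2, which encodes the inhibitory receptor TIM-3, was at 9.91, 10.08 and 9.85 in NOD and 8.06, 8.20 and 8.47 in B6 (1.71 ± 0.24). Zbtb32, a transcriptional repressor gene, was at 6.27, 6.61 and 7.40 in NOD and 7.77, 8.28 and 7.20 in B6, groups that overlap (-0.99 ± 0.26), and this call was lost when B6 replicate 2 or NOD replicate 1 was left out (adjusted p up to 0.0586). Among 15 candidate genes of mapped NOD diabetes regions 4 were higher and 4 lower, with Il2ra and Tnfrsf9 the lowest. The oxidative phosphorylation list had 1 of 28 called, Nnt (0.62 ± 0.13), a mitochondrial transhydrogenase gene and not a subunit of that machinery. For cell cycle genes 1 of 29 was called, lower. That count was 0 when B6 replicate 1, B6 replicate 3, NOD replicate 2 or NOD replicate 3 was left out. With array weights 6 members of the oxidative phosphorylation list were called higher, and with median centring 4 cell cycle genes were called lower. Of 15 cholesterol synthesis genes 4 were higher and 1 lower, with Dhcr7 at 0.94 ± 0.18 and Idi1 at -1.06 ± 0.14. The shares over all genes tested were 13.9% higher and 9.21% lower. In glycolysis the phosphofructokinase gene Pfkp was lower (-1.72 ± 0.16) and the glucose transporter gene Slc2a3 higher (1.14 ± 0.15).

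**Figure D5:**
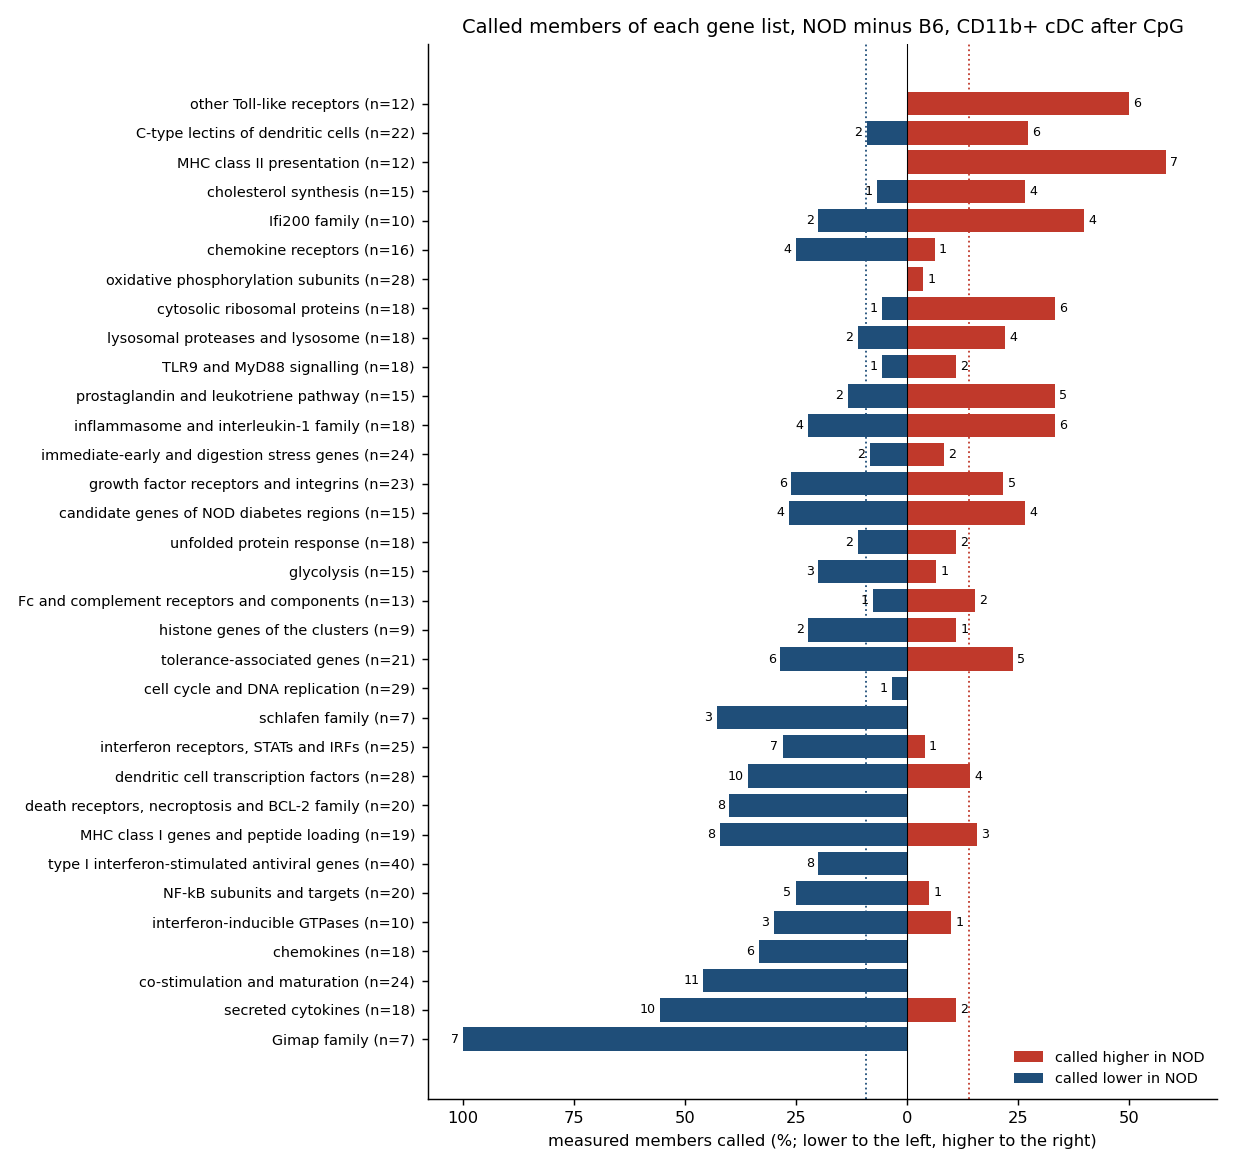
Share of the measured members of each pathway list with at least 7 measured members (n beside its name) called higher (red, to the right) or lower (blue, to the left) in NOD CD11b+ cDC after CpG, ordered by the list's median difference, with the number called at the end of each bar. Dotted lines mark the shares over all genes tested, 13.9% higher and 9.21% lower. The highest medians are those of other Toll-like receptors (0.48), C-type lectins of dendritic cells (0.35) and MHC class II presentation (0.28), and the lowest those of the Gimap family (-2.41) and secreted cytokines (-0.66).

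The dependence of the strain difference on the subset was tested as a second interaction, the difference in CD11b+ minus that in CD8+ cDC after CpG, and it called 595 genes (5.30%), 316 with a higher value (2.81%) and 279 with a lower value (2.48%), or 1056 in all without NOD CD8+ replicate 1. The 3 highest values belonged to genes higher in NOD CD11b+ cDC. Adamdec1 differed by 3.39 ± 0.26 in CD11b+ and 0.02 ± 0.26 in CD8+ cDC (interaction 3.37 ± 0.37), Cygb by 3.77 ± 0.17 and 0.54 ± 0.17 (interaction 3.23 ± 0.24), and Mmp12 by 3.29 ± 0.19 and 0.37 ± 0.19 (interaction 2.92 ± 0.28). Vsx1 (2.79 ± 0.22), BC018473 (2.55 ± 0.31), St6galnac2 (2.39 ± 0.26) and Trem1, an amplifier receptor of myeloid cells (2.52 ± 0.32), were called too. Adgre1, a surface gene of macrophages, was higher in NOD CD11b+ cDC (8.23, 8.88 and 8.93 in NOD against 6.89, 7.38 and 7.63 in B6, 1.38 ± 0.31) and not called in CD8+ cDC (-0.60 ± 0.31, interaction 1.98 ± 0.44). The lowest value was that of Apol7c (-4.65 ± 0.39), and NK genes such as Klrb1c (-4.42 ± 0.40) and Nkg7 (-3.61 ± 0.41) were low as well. Of the NK list 13 of 20 were called lower in this interaction. Klrb1c and Eomes among them passed the filter through the B6 CD11b+ arrays after CpG alone. Ifi202b and Trim12a were called in neither direction (0.57 ± 0.32 and -0.12 ± 0.26), which does not show that the subsets are alike.

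Where a called gene had a further probe set, that probe set mostly moved with it. For 148 called genes 261 further probe sets were tested, of which 248 had the same direction, 164 were called in it and 3 were called in the other. The called genes were spread over the genome, with 20.1% of the tested genes called on chromosomes 8 and 11 and 28.5% on chromosome 13, the lowest and highest shares among the autosomes and X by the RefSeq annotation.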

How the data were processed

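RNA from sorted cDC was amplified with a whole-transcriptome kit and hybridised, per the labels' protocols. The deposited values are log2 signals, for which the submitters' processing notes name the software Partek and RMA normalization (versions not given in the sources used here). The labels name an older 3' expression array, while the probe annotation fits a whole-transcript gene array, so the array model is unsettled. Probe sets were named through the platform annotation, with symbols updated from RefSeq, and 12146 of 35556 were not listed and 1621 had several symbols. Each gene was read from its probe set of highest mean, and 11235 of 19938 genes lay above the array's median on at least 3 of 24 arrays. A limma 3.58.1 fit in R 4.3.3 with 8 group means over 24 arrays (16 residual degrees of freedom, eBayes with trend) gave every contrast, with Benjamini-Hochberg adjustment over all genes tested and a threshold of 0.05. Probe sequences were not used here, so an effect of sequence differences between the strains on hybridisation was not tested, and genes with close copies (Klra, Klrb1, Ifi200, Gbp, Nlrp1 and Trim12 families) may share signal. The scripts were tested on simulated data. A fold is 2 to the power of the log2 difference. With 3 arrays per group, the number of arrays limits the precision.

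The named genes are drawn from the 15 highest and 15 lowest called, members of the gene lists, and a few genes of prior interest. That ranking was made in the CD11b+ strain comparisons after CpG and after PBS and in both interactions. Only the strain comparisons required groups that do not overlap, and not every ranked gene is named. The comparison, the lists and the tests were chosen with earlier results of these data known. Same-numbered CD8+ arrays after CpG deviated together (correlations 0.544, 0.242 and 0.496), which the labels do not explain. Those of CD11b+ cDC had lower correlations (0.187, 0.158 and -0.003 after CpG, -0.101, 0.191 and 0.002 after PBS). With a replicate block the CD8+ comparison called 2781 genes. The alternatives tried were other filters, probe set rules, normalizations, eBayes settings, array weights, fewer arrays, a replicate block and leaving out each replicate.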

Additional observations from a re-analysis of the deposited data

Results flagged for a closer look

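The strain difference itself depended on CpG for 492 genes in CD11b+ cDC, by the interaction test of the limma fit. The values below are log2, the NOD minus B6 difference after CpG minus that after PBS, and cover the genes described here, not all 492. The members of the NK marker list and other killer cell genes called here were all lower, namely Klrb1c (-3.31), Prf1 (-3.08), Gzmb (-3.08), Klre1 (-2.55), Klra8 (-2.53), Klrc1 (-2.49), Ncr1 (-2.28), Il2rb (-2.08), Il18rap (-2.08), Eomes (-1.88), Xcl1 (-1.34) and Tbx21 (-0.90). Lower too were lymphocyte-associated genes, Ifng (-3.37), Thy1 (-3.01), Fasl (-2.89), Gimap3 (-2.83), Gimap7 (-2.73) and Bcl2 (-1.55). Outside these, negative values were large for Csta2 (-4.33), AA467197 (-3.92) and Zfp872 (-3.63). Cytokine, maturation and signalling genes were lower for Il6 (-1.39), Il1rn (-1.34), Tnfrsf9 (-1.94), Cd200 (-1.43), Il2ra (-1.58), Cd86 (-1.12), Cxcr5 (-1.80), Stat4 (-1.73) and Tnip3 (-1.72). The remaining negative values described were those of Mctp2 (-2.76), Itga6 (-2.02), Nfil3 (-1.92), Irf8 (-0.80), Batf (-0.60), Slfn4 (-1.78), Trim25 (-0.70), Apol10b (-1.82), Bcl2l11 (-1.38) and Cd1d1 (-1.16). On the positive side stood the interferon-linked genes Ifi202b (4.29), Ifi208 (2.23), Gbp2b (1.23), Ly6e (1.65) and Tlr3 (1.14). MHC class II genes and class II regulators were positive for H2-Ob (1.88), H2-Oa (1.24), H2-DMa (1.07), H2-Eb1 (0.48), Ciita (0.98) and Marchf1 (0.86). Surface and subset genes were positive for Clec4a2 (1.63), Clec4a4 (1.58), Clec9a (1.33), Cd300a (1.02), Itgax (0.96), Havcr2 (1.19), Kit (0.79), Wdfy4 (1.27), Bcl11a (1.45), H2-M2 (1.73) and Olfr111 (1.80). Enzyme, lipid and remaining genes were positive for Melk (2.82), Inpp4b (2.38), Mmp12 (2.36), Hpgd (2.21), Npl (1.96), Nlrc4 (1.30), Nlrp1a (0.96), Alox5ap (1.21), Pla2g4a (0.78), Ltb (1.24), Spint1 (1.18), Slc2a3 (1.03) and Dhcr7 (0.93). Of the NK list 12 of 20 members were lower in this interaction, and the part of NK RNA in the other negative values was not tested. Klrb1c and Eomes among these members passed the filter through the B6 CD11b+ arrays after CpG alone. So did Klra8, Fasl and Gimap3 among the other genes given above.

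The difference depended on the subset for 595 genes. The values are log2, the difference in CD11b+ minus that in CD8+ cDC after CpG, again for the genes described. NK and other killer cell genes were again lower, namely Klrb1c (-4.42), Klra8 (-3.71), Klrc1 (-3.67), Ncr1 (-3.61), Nkg7 (-3.61), Gzma (-3.32), Xcl1 (-3.23), Klre1 (-3.14), Prf1 (-3.11), Il2rb (-2.98), Il18rap (-2.70), Gzmb (-2.66) and Eomes (-2.48). So were the lymphocyte-associated genes Thy1 (-3.37), Ifng (-3.26), Gimap7 (-2.51), Gimap3 (-2.27), Fasl (-2.5) and Bcl2 (-1.84). Further negative values were those of Apol7c (-4.65), Tnfrsf9 (-1.82), Ccl22 (-1.80), Mctp2 (-1.75), Cd1d1 (-1.71), Cd8a (-1.66), Cxcr5 (-1.57), Irf8 (-1.53), Pfkp (-1.26), Bcl2l11 (-1.09), Tyk2 (-1.06), Cxcl16 (-1.01), Spint1 (-0.94) and Batf (-0.66). Secreted and surface protein genes were positive for Adamdec1 (3.37), Mmp12 (2.92), Olfr111 (2.74), Trem1 (2.52), Il1r2 (2.05), Adgre1 (1.98), Clec4a2 (1.74), Clec4b1 (1.55), Klra17 (1.41), Clec4a4 (1.21) and H2-Ob (1.11). The other positive values described were those of Cygb (3.23), Vsx1 (2.79), Npl (2.67), BC018473 (2.55), St6galnac2 (2.39), Zfp872 (1.59), Zfp979 (1.35), Hpgds (1.27), Nlrp3 (1.05), Pla2g4a (0.82) and Idi1 (0.81). Of the NK list 13 of 20 were lower here, with the same limit for Klrb1c and Eomes. That limit also holds for Klra8, Fasl and Gimap3, given above.

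Probe sets outside the gene comparison also differed between NOD and B6 CD11b+ cDC after CpG. Of 6269 tested probe sets that the annotation does not list, 609 (9.71%) were called, 300 higher and 309 lower in NOD, with log2 differences of up to 4.14 and down to -4.26. Of 878 with several symbols 204 (23.2%) were called, 110 higher and 94 lower.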

How the results depend on the processing

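The count of 2600 genes between NOD and B6 CD11b+ cDC after CpG stayed within 1.5 times under every alternative, between 1877 and 3612. When 1 array was left out it was 1877 to 2367, with 1074 to 1411 higher and 772 to 956 lower, and the other counts were 424 to 487 after PBS, 297 to 524 for the dependence on CpG, 1114 to 3946 in CD8+ cDC after CpG and 419 to 1056 for the dependence on subset. Array weights moved the last 4 in that order to 1046, 1240, 5089 and 1829, with a weight of 12.48 on NOD CD8+ replicate 2 after CpG. A fit on the 6 CD8+ arrays alone called 391, and a fit on the 12 CD11b+ arrays alone called 945 for the dependence on CpG. The labels do not say whether the replicate numbers pair the CD11b+ arrays. A fixed replicate block called 2931 between the strains after CpG and 766 for the dependence on CpG, against 2600 and 492 without it. The direction of Tlr9, which was not called, turned to 0.003 with quantile normalization and to 0.004 without B6 replicate 3, and ran between -0.103 and 0.099 when 1 array was left out. Of the T cell receptor genes, also not called, Cd3d turned to 0.057 with quantile normalization and 0.101 with array weights and ran between -0.100 and 0.164 when 1 array was left out, and Cd3g ran between -0.527 and 0.052. Of the genes named, Clec9a lost its call in 6 settings, Cd40 in 4, and Cd86, Ptger3 and Zbtb32 in 2 each. The filter at 12 of 24 arrays, which tests fewer genes, left 2 of 4 calls higher in the Ifi200 family and among the NOD diabetes candidates and 2 of 4 lower in the inflammasome list, and median centring, array weights and a fixed replicate block each called 5 interferon-inducible GTPases lower in place of 3. The cause of these shifts was not tested.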
